A study of Mus musculus with 30 samples.

Results

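Markers of the olfactory bulb and of migrating neuroblasts were measured in mouse tissue labelled prefrontal cortex, to describe how much olfactory tissue each dissection may have held. The markers are 9 genes taken by symbol from the 18240 genes of the table: Eomes, Tbx21, Cdhr1, Th, Sp8, Sp9, Dlx1, Dlx2 and Dcx. All 9 were in the table and all 9 passed the filter on low values, a mean normalized read count of at least 10 over all libraries, as did 16824 genes in all. Bulk RNA was sequenced at postnatal day 40 from prefrontal cortex of the mouse strain C57BL/6J, giving 30 libraries in 8 groups of 3 or 4 by sex, genotype and treatment. HT denotes mice labelled heterozygous for Adnp, which encodes a homeodomain chromatin protein, and WT denotes wild-type mice. The groups were HT fluoxetine (4 male and 4 female libraries), HT lithium (4 male and 3 female), HT vehicle (3 male and 4 female) and WT vehicle (4 male and 4 female). Fluoxetine is a serotonin reuptake inhibitor and lithium a mood stabilizer, and neither drug was given to a WT group in the samples analysed here. The sources used here give neither the drug doses and the length of treatment nor the change made in Adnp. The labels put all libraries in 1 batch and do not say whether replicates came from separate mice, and p-values therefore refer only to the spread between these libraries.

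The olfactory bulb lies directly in front of the frontal cortex and receives the axons of olfactory sensory neurons. Its output is carried by mitral and tufted cells, which use glutamate, and is shaped by granule and periglomerular interneurons, which use GABA and in part dopamine. New interneurons keep arriving in adult rodents as neuroblasts that migrate from the subventricular zone through the rostral migratory stream. Among the markers, Eomes (also called Tbr2) and Tbx21 (also called T-bet) encode T-box transcription factors of mitral and tufted cells, and Cdhr1 encodes a protocadherin-like protein that these cells share with photoreceptors. Th encodes tyrosine hydroxylase, the rate-limiting enzyme of dopamine synthesis, made by periglomerular cells and by the catecholamine neurons of the midbrain and brainstem. Sp8 and Sp9 encode zinc finger proteins of the Sp family and Dlx1 and Dlx2 homeodomain proteins, all needed to make forebrain interneurons. Dcx encodes doublecortin, the microtubule-associated protein of migrating neuroblasts.

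Promoter sequences are shown for the 3 mitral and tufted cell markers, which spanned the widest ranges of the 9. Each run is the 250 bases upstream of the annotated start on the gene's own strand, from RefSeq (build GRCm38.p6), and none of the 3 windows overlapped an annotated exon in GENCODE M21. They lie at chr9:118477939-118478188 (plus strand, Eomes), chr11:97115332-97115581 (minus strand, Tbx21) and chr14:37098348-37098597 (minus strand, Cdhr1). Capitals mark GGGCGG, the GC box to which Sp proteins bind.
Eomes: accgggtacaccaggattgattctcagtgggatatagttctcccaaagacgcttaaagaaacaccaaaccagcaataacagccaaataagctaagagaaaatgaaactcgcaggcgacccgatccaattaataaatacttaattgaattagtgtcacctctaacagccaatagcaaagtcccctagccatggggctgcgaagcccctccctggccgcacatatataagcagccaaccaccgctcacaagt
Tbx21: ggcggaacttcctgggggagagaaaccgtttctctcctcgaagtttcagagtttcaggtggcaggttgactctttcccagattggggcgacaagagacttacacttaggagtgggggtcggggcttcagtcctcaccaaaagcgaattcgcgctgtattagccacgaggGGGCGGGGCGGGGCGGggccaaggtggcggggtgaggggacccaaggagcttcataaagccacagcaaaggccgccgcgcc
Cdhr1: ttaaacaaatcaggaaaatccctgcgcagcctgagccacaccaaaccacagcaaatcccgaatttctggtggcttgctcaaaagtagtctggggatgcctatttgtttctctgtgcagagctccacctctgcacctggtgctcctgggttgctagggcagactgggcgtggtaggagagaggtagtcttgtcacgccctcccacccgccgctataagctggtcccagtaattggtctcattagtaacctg
GGGCGG, the homeodomain core TAATTA and the T-box site GGTGTGA were searched on both strands of 32851 promoters of the same length. GGGCGG was found in 32.7% of them, TAATTA in 4.84% and GGTGTGA in 3.33%. The Tbx21 window held 3 overlapping copies of GGGCGG, 81, 76 and 71 bases upstream of the start, and the Eomes and Cdhr1 windows had no match to these letters.

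The genes lie at these places in GRCm38, by GENCODE M21. Eomes is on chromosome 9 at 118478212 to 118486132 (plus strand), Tbx21 on chromosome 11 at 97098071 to 97115331 (minus) and Cdhr1 on chromosome 14 at 37077857 to 37098347 (minus). Th is on chromosome 7 at 142892752 to 142931128 (minus), Sp8 on chromosome 12 at 118846329 to 118852576 (plus) and Dcx on chromosome X at 143855842 to 143933311 (minus). The other 3 are on chromosome 2: Sp9 at 73271925 to 73284706 (plus), Dlx1 at 71528113 to 71533981 (plus) and Dlx2 at 71543408 to 71546754 (minus). Exons on the opposite strand cover 5.35% of the exonic bases of Sp9 (Cir1), 6.21% of Dlx1 (Dlx1as) and 2.84% of Eomes (Gm33460). The sources used here do not give the strand setting of the authors' quantification, so reads from these short stretches are uncertain.

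Reads assigned to genes numbered 23771758 to 34307061 per library, and all values below are normalized read counts, that is reads divided by 1 size factor per library. The symbol Adnp had a mean of 2251 in the 7 HT vehicle libraries (SD 137) and of 1898 in the 8 WT vehicle libraries (SD 157). It was thus higher in HT vehicle, against the direction of the labels (log2 difference 0.26, limma adjusted p = 0.00996). This count is uncertain: 83.1% of the exonic bases of Gm20716, a gene annotated on the same strand, are also exonic in Adnp. How reads were divided between both genes was not tested. No test was made of the sum of both, which went with the labels. It was 3404 to 3834 normalized counts in HT fluoxetine, 3497 to 3887 in HT lithium, 3536 to 3795 in HT vehicle and 4226 to 4433 in WT vehicle libraries, so no HT library overlapped a WT one. Cortical markers were high throughout: Slc17a7, the vesicular glutamate transporter of cortical excitatory neurons, had 33543 to 55735 normalized counts, and Neurod6, a transcription factor of these neurons, 1637 to 3088. No label names olfactory bulb, and each of the 9 markers was detected in every library. Detection alone does not tell which tissue gave the reads, and their source was not tested. The shallowest values rested on few reads, with 4 reads for Eomes and 3 for Tbx21 in their lowest libraries, so the low end of both genes is limited by counting. The 2 highest of the 30 libraries for all 9 markers were HT vehicle female 1 and HT lithium male 4, called the top libraries below. Some of the results, not all, are given below with and without them. In bulk tissue, fewer cells of a type and less RNA per cell cannot be told apart.

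Eomes varied more than any other marker. HT fluoxetine males 1 to 4 had 481, 33.2, 121 and 481 normalized counts and HT fluoxetine females 1 to 4 had 484, 15.6, 29.9 and 18.0. HT lithium males 1 to 4 had 246, 192, 383 and 976, and HT lithium females 1 to 3 had 193, 8.97 and 469. HT vehicle males 1 to 3 had 4.70, 235 and 8.53 and HT vehicle females 1 to 4 had 846, 181, 93.1 and 5.38, while WT vehicle males 1 to 4 had 60.4, 3.43, 35.96 and 238 and WT vehicle females 1 to 4 had 9.86, 486, 10.7 and 230.2. High and low libraries stood side by side in each of the 4 conditions, all 4 ranges overlapped, and only the HT lithium males were without a library under 100. The highest library was 285-fold above the lowest.

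The other mitral and tufted cell markers had similarly wide ranges. Tbx21 had normalized counts of 2.85 to 178 (median 30.9) in HT fluoxetine, 6.73 to 213 (73.3) in HT lithium, 2.84 to 273 (35.0) in HT vehicle and 6.23 to 117 (12.04) in WT vehicle libraries. Cdhr1, the most abundant of the 3, had 107 to 2697 (505) in HT fluoxetine, 319 to 5420 (1192) in HT lithium, 202 to 4807 (431) in HT vehicle and 63.4 to 2021 (385) in WT vehicle libraries. For both genes the ranges of the 4 conditions overlapped. The highest library was 96.1-fold above the lowest for Tbx21 and 85.5-fold for Cdhr1.

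Th spanned 63.1-fold over the 30 libraries, with 28.9 to 711 normalized counts (median 103) in HT fluoxetine, 66.2 to 1569 (285) in HT lithium, 63.4 to 1338 (101) in HT vehicle and 24.8 to 592 (92.5) in WT vehicle libraries. Sp8 spanned 34.5-fold, with 26.9 to 444 (109) in HT fluoxetine, 67.3 to 929 (306) in HT lithium, 58.7 to 852 (135) in HT vehicle and 51.6 to 501 (103) in WT vehicle libraries. Sp9 spanned 10.7-fold, with 74.8 to 385 (275) in HT fluoxetine, 116 to 626 (235) in HT lithium, 180 to 685 (191) in HT vehicle and 64.2 to 330.2 (168) in WT vehicle libraries. Sp8 and Sp9, which act together in olfactory bulb interneurons, thus differed in how far they ranged, and their highest libraries were the same 2.

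Dlx1, Dlx2 and Dcx kept a substantial level in every library. Dlx1 had 631 to 2359 normalized counts (median 840) in HT fluoxetine, 665 to 4192 (1643) in HT lithium, 604 to 3857 (1056) in HT vehicle and 599.6 to 2331 (833) in WT vehicle libraries. Dlx2, its neighbour on the chromosome, had 123 to 395 (208) in HT fluoxetine, 160.4 to 595 (296) in HT lithium, 163 to 619 (189) in HT vehicle and 115 to 401 (205) in WT vehicle libraries. Dcx had 1231 to 3395 (1701) in HT fluoxetine, 1589.6 to 5167 (2867) in HT lithium, 1311 to 5300 (2103) in HT vehicle and 1381 to 3872 (1610) in WT vehicle libraries. Their highest library was 6.99-fold, 5.39-fold and 4.3-fold above the lowest.

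**Figure D1:**
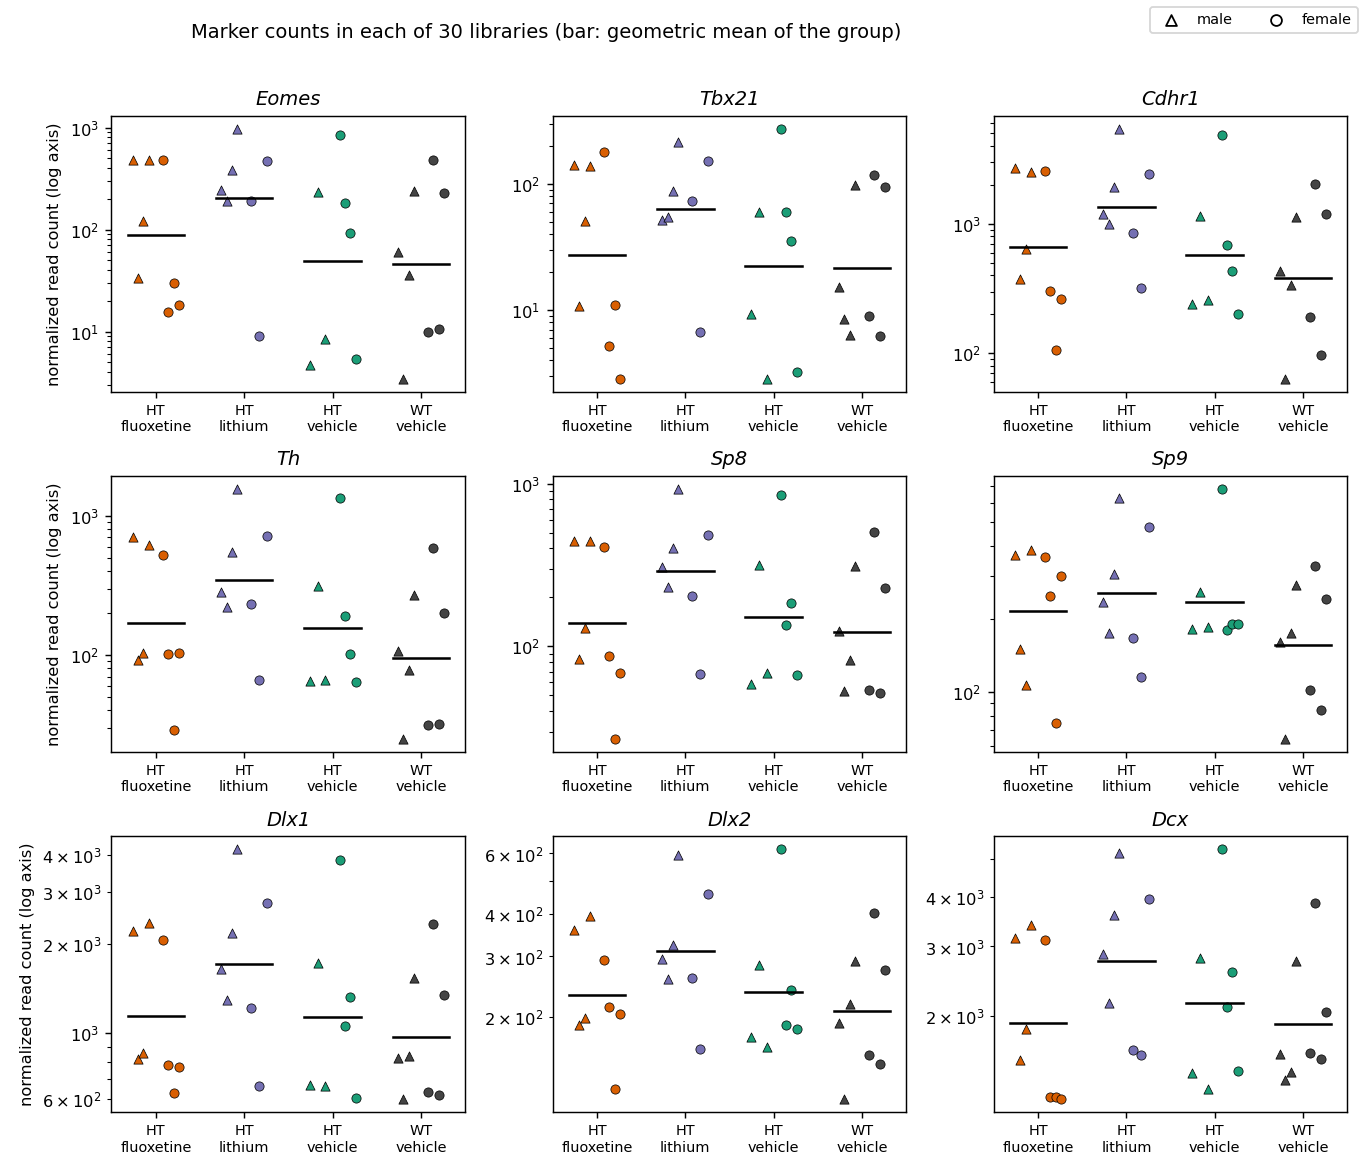
Normalized read counts (log axis) of the 9 markers in 30 libraries by condition, with triangles for male and circles for female libraries and a bar at each condition's geometric mean. The 4 conditions overlap in every panel, and the top libraries are HT vehicle female 1 and HT lithium male 4 in each panel.

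The same libraries were high for all markers. HT lithium male 4 was highest for 5 of them (Eomes, Cdhr1, Th, Sp8 and Dlx1) and HT vehicle female 1 for the other 4. WT vehicle male 2 was lowest for 6 of the 9. The SD of the log2 level around the 8 group means was 2.44 for Eomes, 2.004 for Tbx21, 1.68 for Cdhr1, 1.65 for Th, 1.36 for Sp8, 0.891 for Sp9, 0.856 for Dlx1, 0.623 for Dcx and 0.620 for Dlx2, against a median of 0.134 over the 16824 genes tested. Eomes ranked 25th and the least variable marker, Dlx2, 544th of those genes by this spread.

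The first comparison asked whether genotype or treatment moved the markers, and for none of the 9 did a difference pass the test. Differences were tested by limma on log2(normalized count + 1), averaged over the sexes and adjusted by the Benjamini-Hochberg method over all 16824 genes, with a call at an adjusted p under 0.05. Fold changes on this scale understate the change of low genes. Comparing HT vehicle with WT vehicle libraries, 0 of 9 markers were called, where 0.731% of all genes were. The median marker difference was 0.19 on the log2 scale (7 of 9 above 0), against -0.0010 over all genes. Eomes differed by -0.038 (95% interval -2.65 to 2.57, limma adjusted p = 0.9996) and Dcx by 0.14 (-0.52 to 0.81, limma adjusted p = 0.978).

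For HT fluoxetine against HT vehicle libraries, 0 of 9 markers were called (0.0357% of all genes), and the median marker difference was 0.042 with 5 of 9 above 0. Eomes differed by 0.92 (-1.69 to 3.53) and Th by 0.18 (-1.59 to 1.95). For HT lithium against HT vehicle libraries, 0 of 9 were called (0.0892% of all genes), although all 9 differences were above 0 and their median was 0.92. Eomes differed by 1.97 (-0.73 to 4.68, limma adjusted p = 0.879), Cdhr1 by 1.21 (-0.65 to 3.07) and Th by 1.13 (-0.71 to 2.96). The smallest difference of the 9 was that of Sp9, 0.11 (-0.87 to 1.10). These intervals include both no difference and differences of several fold for the mitral and tufted cell markers. The lithium and fluoxetine comparisons share the HT vehicle libraries, and the 9 genes vary together, so their common direction is not 9 independent observations.

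Between the drugs, HT fluoxetine against HT lithium, 0 of 9 markers and 0 genes in all were called by limma (0.0% of all genes), with 1154 genes at an unadjusted p under 0.05, 0 called by edgeR and 13 by DESeq2. All 9 differences were below 0, with a median of -0.95, and that of Eomes was -1.05 (-3.66 to 1.56). For HT fluoxetine against WT vehicle libraries, 0 of 9 were called (1.49% of all genes) and the median was 0.35. For HT lithium against WT vehicle libraries, 0 of 9 were called (1.97% of all genes) and the median was 1.15. Th came nearest there, with a difference of 1.77 (SE 0.853, unadjusted p = 0.0498, limma adjusted p = 0.282), followed by Cdhr1 at 1.73 (SE 0.865, limma adjusted p = 0.299). Th was the 1 marker at an unadjusted p under 0.05 in any of these sex-averaged comparisons, and edgeR and DESeq2 also called 0 markers in each of them. Comparing male with female libraries, 0 of 9 were called (0.214% of all genes), and the median was 0.16.

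**Figure D2:**
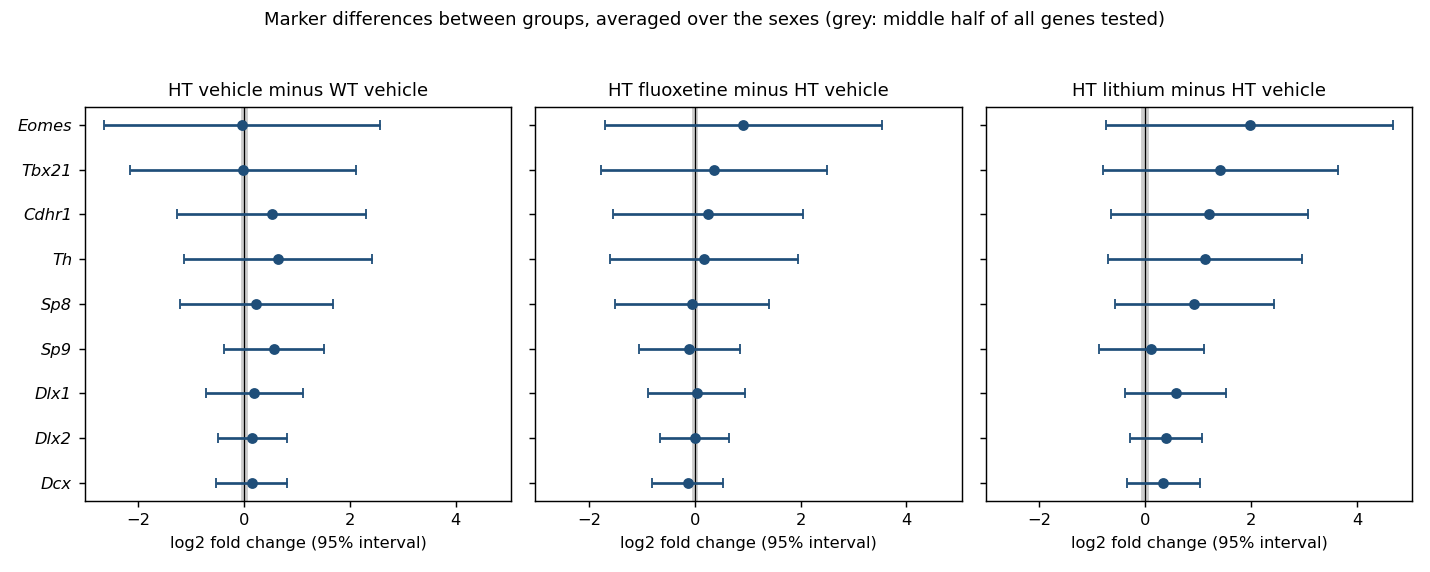
Log2 fold change of each marker with its 95% interval (limma, n = 7 or 8 libraries a condition) for genotype, fluoxetine and lithium, with the interquartile range of all 16824 genes shaded grey. Every interval crosses 0, that of Eomes is the widest, and all 9 lithium differences lie above 0.

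Within 1 sex the differences had wider errors (SE of Eomes under lithium 1.85 in males, against 1.30 averaged over the sexes). Under lithium the median marker difference from HT vehicle was 1.89 in males (0 of 9 called, 0.0773% of all genes) and -0.018 in females (0 of 9 called, 0 genes in all, 597 at an unadjusted p under 0.05). Eomes in males differed by 3.96 (SE 1.85, unadjusted p = 0.0428, limma adjusted p = 0.353) under lithium, where the 4 HT lithium males had 192 to 976 normalized counts and the 3 HT vehicle males 4.70, 235 and 8.53. Under fluoxetine the median was 0.99 in males (0 of 9 called, 0.0178% of all genes) and -0.84 in females (0 of 9 called, 0 genes in all, 648 at an unadjusted p under 0.05). The difference between the sexes was itself tested and called for 0 of 9 markers under either drug (0 genes in all, 1684 and 1002 at an unadjusted p under 0.05 for lithium and fluoxetine). For genotype the medians were 0.034 in males and 0.53 in females, with 0 of 9 called in either sex (0.226% and 0.256% of all genes) and 0 of 9 for their difference (0 genes in all, 345 at an unadjusted p under 0.05). The counts over all genes within 1 sex are those of limma, and edgeR and DESeq2 also called 0 markers in these comparisons.

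In contrast to the group differences, the markers varied together within groups. After the 8 group means were removed, all 36 pairs of markers were positively correlated across the 30 libraries, with Pearson's r of 0.67 to 0.98 (median 0.92). The closest pair was Cdhr1 and Th, a mitral and tufted cell gene and a periglomerular one (r = 0.98, Spearman's rho = 0.98), and the loosest was Tbx21 and Sp9 (r = 0.67, rho = 0.68, permutation p = 0.00117). Each p came from 100000 permutations of libraries within groups, and 36 of 36 pairs passed after adjustment over the 36. The smallest p the permutations can give, 1e-05, was reached by r in 32 of the pairs. Eomes had r of 0.94 with Tbx21, 0.93 with Cdhr1, 0.92 with Sp8 and Dlx1, 0.91 with Th, 0.87 with Dcx, 0.85 with Dlx2 and 0.74 with Sp9. Without the 2 libraries farthest from the median of the first gene of each pair, r was 0.68 to 0.98. These correlations share the libraries and their size factors.

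**Figure D3:**
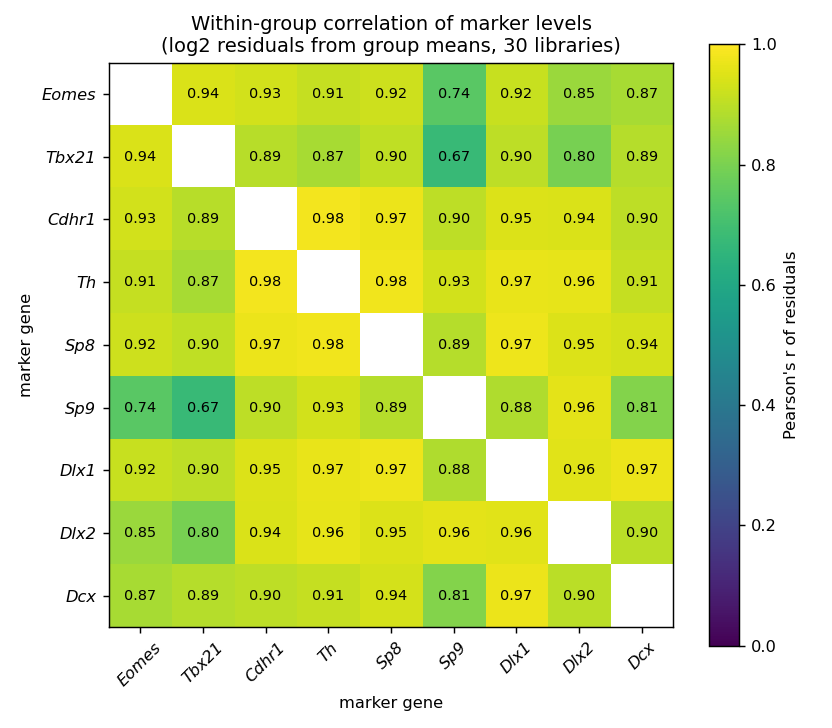
Pearson's r between the 9 markers over 30 libraries, computed on log2 residuals from the 8 group means (colour scale 0 to 1, values printed in the cells). The lowest values lie in the Sp9 row, against Tbx21 (0.67) and Eomes (0.74), and the highest is that of Cdhr1 with Th (0.98).

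On the linear scale the fitted level at an Eomes count of 0 differed between the markers. Fitted across libraries with group means removed, each Eomes read went with 5.25 reads of Cdhr1 (SE 0.168), 1.45 of Th (SE 0.0681) and 0.283 of Tbx21 (SE 0.0144). The level left at an Eomes count of 0 was 42.5 ± 52.5 for Cdhr1, -5.31 ± 21.3 for Th and 3.79 ± 4.50 for Tbx21 (estimate ± SE), within 1 SE of 0 for these 3. The libraries of lowest Eomes count nevertheless held Cdhr1 and Th. WT vehicle male 2 (3.43 Eomes counts) had 63.4 and 24.8 of them. HT vehicle male 1 (4.70) had 238 and 64.6, and HT vehicle female 4 (5.38) had 202 and 63.4. A fitted level near 0 thus does not mean that either gene was absent there. Sp8, with 0.895 reads per Eomes read, kept 50.7 ± 8.41 at an Eomes count of 0, or 20.5% of its mean. The remaining level was 634 ± 42.5 for Dlx1 (44.2% of the mean), 122 ± 15.4 for Sp9 (49.4%), 162 ± 10.1 for Dlx2 (61.0%) and 1446 ± 84.9 for Dcx (61.1%). Linear r with Eomes was 0.93 to 0.99 for the 8 genes. The slope rests in part on the 2 highest libraries: without them Cdhr1 had 4.62 reads per Eomes read and 127 left at 0, and Th 1.20 and 27.6.

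**Figure D4:**
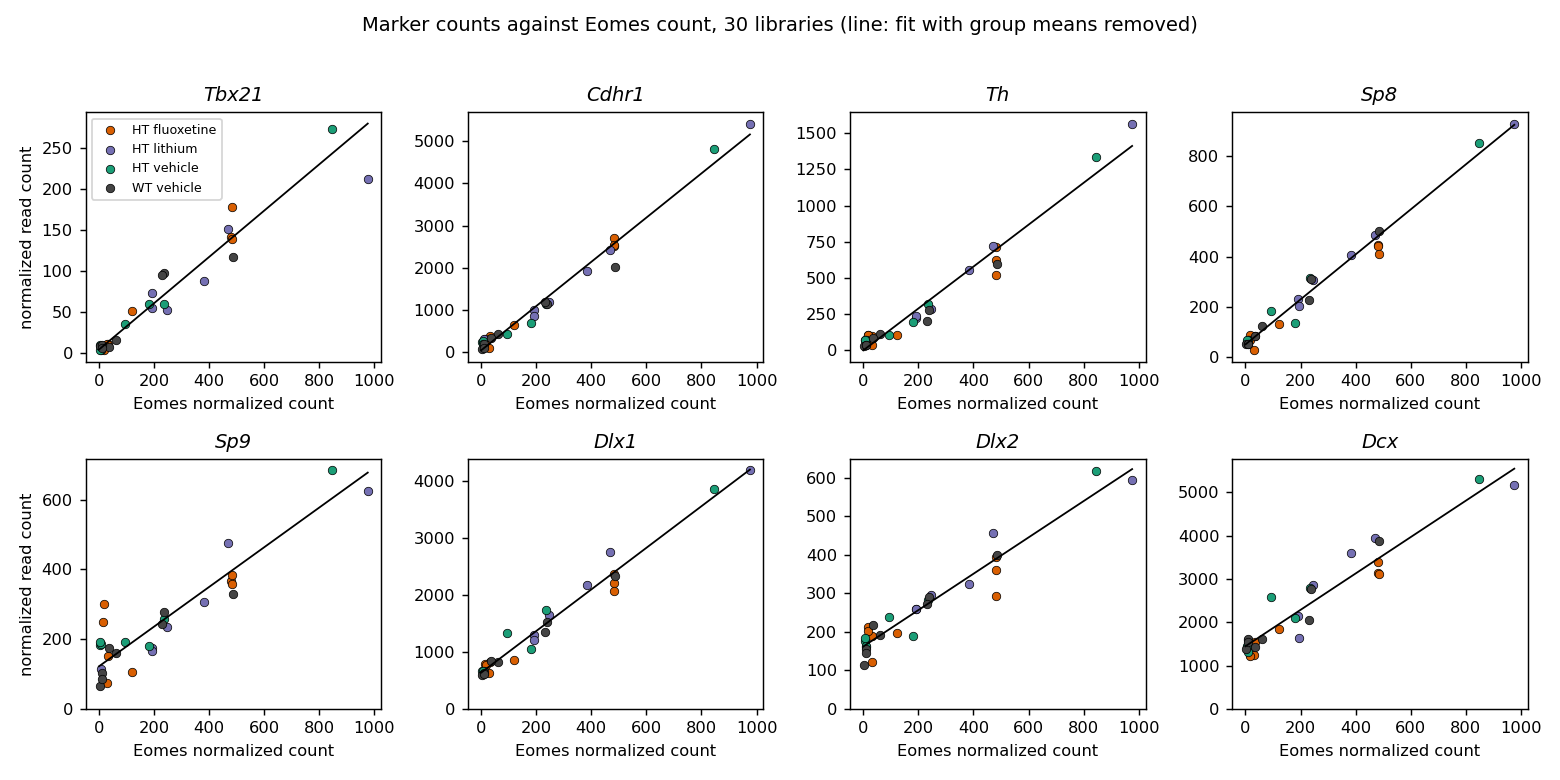
Normalized read counts of 8 markers against Eomes in 30 libraries, coloured by condition, with the line fitted after group means were removed. The lines for Tbx21, Cdhr1 and Th meet the vertical axis near 0, whereas Dlx1 starts near 634 and Dcx near 1446, and libraries of all 4 conditions lie along each line.

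To find the genes that varied with these markers, the log2 level of Eomes was added as a term to the fit of all other genes, with group means kept. All 8 other markers were called (limma), each higher where Eomes was higher, where 9.59% of the 16823 genes tested were called in that direction, 8.14% in the other and 17.7% in all (1614, 1369 and 2983 genes). The slope, in log2 units per log2 unit of Eomes, was 0.78 for Tbx21 (SE 0.0559, limma adjusted p = 8.7e-10), 0.64 for Cdhr1, 0.62 for Th, 0.51 for Sp8, 0.32 for Dlx1, 0.27 for Sp9 (SE 0.0525, limma adjusted p = 0.00126), 0.22 for Dcx and 0.22 for Dlx2, against a median of -0.00018 for all genes. With another marker as the term, the share of genes called in either direction was 21.3% for Tbx21, 24.9% for Cdhr1, 27.6% for Th, 27.2% for Sp8, 28.9% for Sp9, 30.5% for Dlx1, 30.6% for Dlx2 and 31.6% for Dcx, and the 8 remaining markers were among them in each case. The number of genes called with Eomes was 1794 when HT vehicle female 1 was left out and 1915 when WT vehicle female 2 was. With both top libraries left out it was 1583 (5.59% of genes higher and 3.82% lower), and all 8 markers were called in each of these fits.

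The genes whose pattern was most like that of Eomes, by r of the residuals over 30 libraries among genes with a mean of at least 50, were Shisa3 (r = 0.97), Doc2g (0.97), Frmd7 (0.96), Ms4a15 (0.96), Adamts19 (0.95), Vipr2 (0.95), Ppm1j (0.95), Nmb (0.94), Calb2 (0.94) and Scgn (0.94). Doc2g had 56.1 to 3965 normalized counts with a median of 439, and Shisa3, of the Shisa family of membrane adaptors, 11.7 to 548 with a median of 72.7. Ms4a15, a membrane protein gene, was listed at 0 in HT vehicle female 4 and reached 782 in HT lithium male 4. Vipr2 encodes a receptor for the peptides VIP and PACAP, Nmb the peptide neuromedin B, and Calb2 and Scgn the calcium-binding proteins calretinin and secretagogin of bulb interneurons. In 8 of the 10, the highest library was HT lithium male 4, and in Ppm1j and Scgn it was HT vehicle female 1. Leaving out both libraries left r at 0.93 to 0.97.

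At the other end, the lowest r belonged to Fig4 (-0.86), Enpp5 (-0.85), Lrrtm3 (-0.83), Crym (-0.83), Fam160b2 (-0.82) and Arpc1a (-0.82). Fig4 encodes a phosphoinositide phosphatase, Lrrtm3 a leucine-rich synaptic adhesion protein, Crym the thyroid hormone-binding mu-crystallin and Arpc1a a subunit of an actin-nucleating complex. Their slopes were small: Crym changed by -0.10 and Fig4 by -0.043 per log2 unit of Eomes (limma adjusted p = 2.73e-05 and 1.65e-05). Crym had 1259 normalized counts in HT lithium male 4, its lowest library, and 3008 in HT vehicle male 3, its highest.

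Lists of marker genes for the cell types the dissection could hold were then read in the same fit. Over all genes, that fit called 9.59% higher with Eomes and 8.14% lower. Of 8 other projection neuron markers of the bulb, 6 were higher with Eomes and 0 lower (median slope 0.43); the 6 were Shisa3, Doc2g, Nmb, Barhl2, Lbhd2 and Reln, which encodes reelin. Tbr1, a T-box gene that mitral cells share with deep cortical neurons, had a slope of -0.063 (limma adjusted p = 0.0644), and Slc17a6, the glutamate transporter of many subcortical neurons, one of 0.045 (limma adjusted p = 0.0747). Of 12 bulb interneuron markers, 10 were higher and 0 lower (median 0.21). They included Scgn (0.84), Trh, the precursor of thyrotropin-releasing hormone (0.54), Calb2 (0.50), Prokr2, the prokineticin receptor needed for bulb development (0.32), and Pax6 (0.18). The GABA-synthesis genes parted: Gad1 was called (0.11, limma adjusted p = 0.00207) and Gad2 was not (-0.035, limma adjusted p = 0.444).

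Of 14 other neuroblast genes, 7 were higher with Eomes and 0 lower (median 0.074). These were Sox4 (0.17), Dlx6os1 (0.20), Nrep (0.11), Cd24a (0.15), Dpysl3 (0.049), Igfbpl1 (0.28) and Dlx5 (0.15), whereas Sox11, which neuroblasts also express, was not called (0.048, limma adjusted p = 0.218). Once both top libraries were left out, 5 of the 14 were called higher and 0 lower (median 0.056). The broadly neuronal Tubb3, Stmn1 and Ncam1 had slopes of -0.0072 to 0.00051. Of 7 genes of dividing subventricular progenitors, 0 were higher and 1 was lower, by limma and by edgeR alike, where limma called 8.14% of all genes lower. Only 1 of the 7 slopes was positive (median -0.076), and 5 genes were at an unadjusted p under 0.05 by edgeR. The proliferation genes Mki67 and Top2a had slopes of -0.14 and -0.14 without a call. Of 7 genes of the olfactory nerve layer, 3 were higher: Omp, the olfactory marker protein of sensory neurons (0.60), Fabp7, a fatty acid-binding protein of ensheathing glia (0.27), and Frzb (0.076). Omp had 8.96 to 1205 normalized counts with a median of 32.4, and HT lithium male 4 was its highest library.

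Of 5 catecholamine neuron genes measured, 2 were higher with Eomes and 0 lower. They were the dopamine transporter Slc6a3 (0.32, limma adjusted p = 0.000327) and the vesicular transporter Slc18a2 (0.28, limma adjusted p = 0.00856). Both were low, with means of 23.0 and 23.3 normalized counts. Dbh, which makes noradrenaline from dopamine, had 4.99 to 23.7 normalized counts and a slope of 0.0036, and Ddc, the decarboxylase that follows Th, had a slope of -0.017. Slc6a2 and the dopamine neuron genes Pitx3 and En1 were on this list too but were not found by symbol among the genes measured.

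Cortical lists gave mixed results. Limma called 9.59% of all genes higher with Eomes and 8.14% lower, so 1 or 2 calls in a short list are not read here as a result about its cell type. Of 12 excitatory neuron genes, 0 were higher and 4 lower: Foxp2 (-0.16), Tle4 (-0.095), Rprm (-0.090) and Fezf2 (-0.070, limma adjusted p = 0.0475). By edgeR 3 of the 12 were called, without Fezf2, and by limma 3 once both top libraries were left out. Slc17a7 and Neurod6 were not called (-0.018 and -0.015). Of 11 cortical interneuron genes, 2 were higher, among them Adarb2 (0.12), and 2 were lower, Lhx6 (-0.091) and Sst (-0.088). Without both top libraries, 1 of the 11 was called higher and 2 lower. Of 9 meningeal fibroblast genes, 2 were higher (Aldh1a2 and Ogn, 0.086 and 0.10), and 0 were called by limma once both top libraries were left out. All 9 had positive slopes, 5 of them at an unadjusted p under 0.05 by limma and 6 by edgeR, and their median of 0.074 was as high as that of the neuroblast list. The summed count of the 9 was 4241 to 7248 in HT fluoxetine, 4478 to 12558 in HT lithium, 3073 to 5537 in HT vehicle and 2688 to 6801 in WT vehicle libraries, and the part of meningeal tissue in the marker levels was not tested. Of 6 oligodendrocyte precursor genes 1 was lower (Cspg4, -0.031), which edgeR did not call, nor did limma once both top libraries were left out. By limma and by edgeR, 0 of 4 choroid plexus and ependymal genes and 0 of 4 thalamic genes were called, with 0 and 2 of them at an unadjusted p under 0.05 by limma.

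Striatal medium spiny neuron genes had the lowest median slope of the lists, -0.31, with 0 of 12 higher and 11 lower where Eomes was higher. They included Drd1, a dopamine receptor (-0.35), Ppp1r1b, a phosphatase inhibitor (-0.26), and Pde10a, a phosphodiesterase (-0.22). With both top libraries left out, 6 of the 12 were called lower. HT fluoxetine females 2 and 4 had the highest summed striatal counts, 40563 and 49156, with 15.6 and 18.0 Eomes counts. The striatal sum was 6573 in HT lithium male 4 and 6931 in HT vehicle female 1. In HT fluoxetine female 3, WT vehicle male 2 and WT vehicle female 3 both were low, with striatal sums of 8018, 7852 and 8480 and Eomes counts of 29.9, 3.43 and 10.7. Sp9, which striatal neurons also express, was lowest in those 3 libraries (74.8, 64.2 and 84.6), against 249 and 301 in HT fluoxetine females 2 and 4. With Eomes removed as well as the group means, the mean log2 level of the striatal list had r = 0.54 with Sp9, 0.52 with Cdhr1, 0.39 with Dlx2, 0.38 with Th, 0.15 with Sp8, -0.071 with Dlx1, -0.34 with Dcx and -0.55 with Tbx21 over the 30 libraries. Without HT fluoxetine females 2 and 4 it was 0.34 for Sp9, 0.45 for Cdhr1, 0.17 for Dlx2, 0.18 for Th, -0.082 for Sp8, -0.23 for Dlx1, -0.38 for Dcx and -0.45 for Tbx21. The part of striatal tissue in the level of these markers was not tested.

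**Figure D5:**
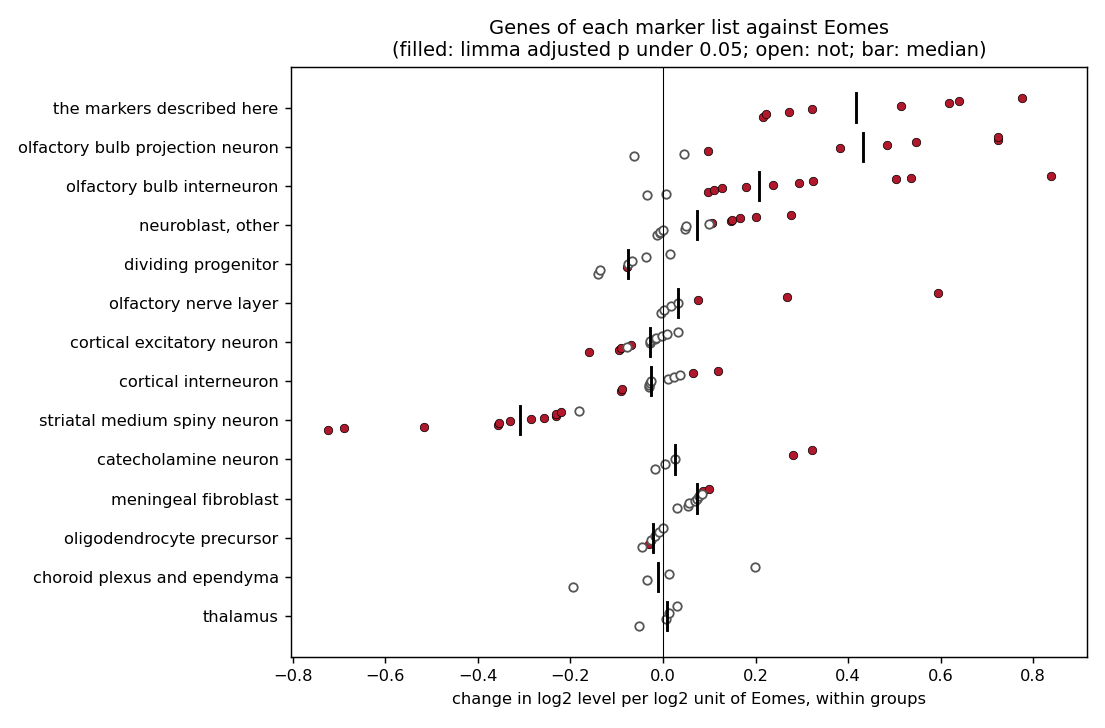
Slope of each list's genes on Eomes (change in log2 level per log2 unit of Eomes, limma with group means kept, 30 libraries), filled where the adjusted p was under 0.05 and with a bar at the list's median. Projection neuron and interneuron genes of the bulb lie to the right (medians 0.43 and 0.21) and striatal genes to the left (median -0.31), and the thalamic and choroid lists are centred near 0.

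Library totals were set beside the markers. The number of recovered reads had r of -0.43 to -0.19 with the 9 residual levels, with adjusted permutation p of 0.132 to 0.35. The summed normalized count, which changes with the make-up of a library's RNA, had r of -0.82 (Sp9) to -0.45 (Tbx21), with adjusted permutation p of 6.75e-05 to 0.0107. The 2 lowest sums were 26796660 in HT lithium male 4 and 27823572 in HT vehicle female 1, and the highest was 29412576 in WT vehicle female 3. The part of library make-up in the marker levels was not tested. With the log2 level of Eomes as a term in the group comparisons, the median difference of the remaining markers was -0.090 for lithium and -0.34 for fluoxetine against HT vehicle and 0.23 for HT vehicle against WT vehicle libraries, and 0 of them were called by limma. Over all genes, that fit called 210 for HT lithium against WT vehicle libraries, where 332 were called without the term. It called 289 for HT fluoxetine against WT vehicle (251 without the term), 160 for HT vehicle against WT vehicle (123), 43 for male against female (36), 11 for lithium (15) and 6 for fluoxetine (6) against HT vehicle.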

How the data were processed

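RNA of 30 libraries was prepared with a TruSeq Stranded mRNA kit, per the labels' protocols. Salmon 0.11.2, R 3.6.0, DESeq2 1.19.11 and the build GRCm38 are named in the submitters' processing notes. The authors deposited a signal per gene, that is read counts divided by 1 size factor per library. Whole reads were recovered from the steps between low values, and 100% of values came out whole within 0.01 of a read in each library. Columns of no labelled sample numbered 0. Of 18240 gene IDs, 18227 had a symbol.

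Libraries were grouped by their titles. The 42 replicate pairs had a chi-square of 4.78 to 32.0 per degree of freedom, so none were counted as 1 library. The main test was limma 3.58.1 (trend, robust; R 4.3.3) on log2(normalized count + 1), with 8 group means fitted to all 30 libraries, genes with a mean of at least 10, and Benjamini-Hochberg adjustment over all genes tested. Fits with Eomes as a term gave the slopes. Alternatives were edgeR 4.0.16 and DESeq2 1.42.0 on the recovered reads, other pseudocounts and filters, TMM scaling, a replicate block, the groups compared alone, and each library left out in turn. Scripts for limma and for the permutations were tested on simulated data. Permutations, sums and linear fits used Python 3.11.15 with numpy 2.4.6, scipy 1.17.1 and pandas 2.3.3. The settings with Eomes as a term in the group comparisons, without the 2 libraries of highest Eomes count and on the linear scale, and the correlation with the striatal list, were chosen after seeing the data. The sum of Adnp and Gm20716 was not planned beforehand.

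The markers and lists were chosen with earlier results of these data known. Genes named beyond the markers are the 10 highest and 6 lowest by r with Eomes among called genes with a mean of at least 50, without predicted or unnamed genes, and up to 4 called genes per list by smallest p. Other list genes named, those not called included, were chosen after their values were seen. Some list genes are not reported here. Replicate numbers were used as names: between groups, correlations of same-numbered libraries ran from -0.43 to 0.45. Replicate numbers are those of the titles. HT lithium females 2 and 3 carry the numbers 3 and 4 in their library names, so the replicate block and these correlations depend on the numbering, and the other numbering was not run.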

Additional observations from a re-analysis of the deposited data

Results flagged for a closer look

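Dixon's test was applied to normalized counts in 54 combinations of a marker and a group of 4 libraries. In 14 of them the highest library exceeded the 95% critical value of 0.829, and no lowest library did. Chance flags about 1 in 20 groups only if values are normally distributed. The counts were not log-transformed and their distribution was not tested, so the flags are a description only. As the 9 markers vary together, these are not 14 separate events: they come from 3 libraries. HT fluoxetine female 1 stood apart for 7 markers, with normalized counts of 484 for Eomes, 178 for Tbx21, 2548 for Cdhr1, 410.3 for Sp8, 2065 for Dlx1, 3122 for Dcx and 520.2 for Th. HT vehicle female 1 stood apart for 5, with 4807 for Cdhr1, 852 for Sp8, 685 for Sp9, 619 for Dlx2 and 1338 for Th. WT vehicle male 4 stood apart for 2, with 97.1 for Tbx21 and 2760.04 for Dcx. HT lithium male 4, the highest library for 5 markers, was not flagged in its own group, where the next library had 383 Eomes counts.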

How the results depend on the processing

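In every setting run 0 markers were called in a group comparison, all 36 pair correlations stayed positive, and all 8 markers were called with Eomes. Directions of the small genotype and fluoxetine differences did change, and the causes were not tested. For genotype, Eomes (-0.038) was 0.015 with a pseudocount of 5, 0.022 with the replicate block, 0.31 by edgeR and 0.29 by DESeq2, and Tbx21 (-0.019) was 0.058, 0.022, 0.16 and 0.15 in the same settings. Dlx1 under fluoxetine was -0.040 by edgeR and -0.036 by DESeq2. With HT vehicle female 1 and HT lithium male 4 both left out, genotype differences were -0.13 for Sp8, -0.061 for Dlx1, -0.043 for Dlx2 and -0.035 for Dcx, fluoxetine differences 0.30 for Sp8, 0.13 for Sp9, 0.20 for Dlx2 and 0.043 for Dcx, and reads per Eomes read 0.298 for Tbx21, 4.62 for Cdhr1, 0.865 for Sp8, 4.64 for Dcx and 1.20 for Th.

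Leaving out 1 library at a time gave genotype differences of -0.87 to 0.62 for Eomes, -0.56 to 0.52 for Tbx21, -0.15 to 0.55 for Sp8, -0.061 to 0.38 for Dlx1, -0.043 to 0.30 for Dlx2 and -0.035 to 0.29 for Dcx. Fluoxetine differences were -0.23 to 0.91 for Tbx21, -0.19 to 0.71 for Cdhr1, -0.41 to 0.33 for Sp8, -0.24 to 0.15 for Sp9, -0.15 to 0.30 for Dlx1, -0.095 to 0.20 for Dlx2, -0.30 to 0.043 for Dcx and -0.19 to 0.63 for Th, and the lithium difference of Sp9 was -0.18 to 0.35.

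Genes called with Eomes numbered 1794 to 3711 with 1 library left out, 1874 without the 2 libraries of highest Eomes residual and 1583 without the 2 of highest count, against 2285 with the replicate block and 2846 to 3287 in the filter, scaling, pseudocount and edgeR settings. The block changed no marker's call. Over all settings, slopes on Eomes of the markers and of the genes named by rule lost their call 99 times. They kept their status 1977 times and changed direction 0 times. Same-numbered libraries of HT vehicle and WT vehicle males correlated at 0.17, 0.19 and 0.28, and those of HT vehicle and WT vehicle females at -0.34, -0.23, 0.15 and 0.059. For HT fluoxetine and HT vehicle females the values were 0.41, -0.11, 0.39 and 0.45, and for the males -0.20, -0.43 and 0.037. The labels give no shared origin.

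Counts over all genes moved by over 1.5 times for genotype (68 with a mean of at least 50), fluoxetine (11 with only the groups compared, 12 by DESeq2, 3 to 7 leaving out 1 library), lithium (5 with only the groups compared, 8 to 16), fluoxetine against lithium (13 by DESeq2, 0 to 4), fluoxetine against WT (165 with a mean of at least 50), lithium against WT (208 with only the groups compared, 210 with Eomes as a term, 196 to 503) and male against female (79 by DESeq2). Depth limits the lowest Eomes and Tbx21 values.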

Other observations

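The leading principal component of all tested genes after removal of group means held 26.1% of the remaining variance, and its absolute r with Eomes was 0.847 over the 30 libraries. The next component held 15.8% of that variance, with an absolute r of 0.232. Eomes is itself among the genes that form these components, and no test was made of them.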
